A study of Mus musculus with 18 samples.

Results

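The genes described here are 39 mouse genes of the NRF2 response and of antioxidant defence, out of 55414 genes in the count table. They were taken from a list of names covering the NRF2 regulators, electrophile response genes, glutathione and thioredoxin systems, superoxide and peroxide removal, iron storage and NADPH supply. Each name matched 1 gene identifier, and all 39 had at least 10 counts in total and were tested among 21772 genes. These genes and the further pathway genes below were chosen with earlier results of these data known. Their shares beside those of all genes therefore carry no test. C2C12 is a mouse myoblast line that fuses into myotubes when serum is reduced. Confluent C2C12 cells were transfected with pooled siRNAs (SMARTpools) against Erk3 (siErk3) or Mk5 (siMk5), or with a non-targeting pool (siNTC), and differentiated for 6 days. The myotubes then spent 16 h in serum-free medium with bovine serum albumin alone (BSA) or with 0.5 mM palmitic acid bound to albumin (PA). This gave 6 groups of 3 RNA-seq libraries, with 13041979 to 28496727 counts per library and a median of 22417470. The model is a single cell line and each silencing used 1 pool. Whether the 3 libraries of a group came from separate cultures is not stated, so p-values measure the spread between these libraries, which may be technical.

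NRF2, encoded by Nfe2l2, is a transcription factor that KEAP1 marks for degradation in unstressed cells. When oxidants or electrophiles modify KEAP1, NRF2 accumulates, pairs with small MAF proteins and binds antioxidant response elements near genes for glutathione synthesis, thioredoxin reduction, quinone and heme breakdown, ferritin and the pentose phosphate pathway. Skeletal muscle uses these systems to handle the peroxide and lipid-derived electrophiles that arise with contraction and fatty acid load.

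The labels were first checked on the silenced genes, as counts scaled to library size with TMM factors (normalized CPM). Erk3 is encoded by Mapk6. Its level in the BSA libraries was 135, 129 and 133 with siNTC and 56.6, 60.3 and 55.2 with siErk3, 2.30-fold lower (log2 fold change -1.20, SE 0.059, edgeR adjusted p = 1.77e-14). Under PA it was 215, 236 and 244 with siNTC and 131, 119 and 109 with siErk3, 1.93-fold lower (edgeR adjusted p = 1.21e-12). Mapkapk5, which encodes MK5, was scarce. Its BSA libraries held 2.53, 2.54 and 2.32 with siNTC and 1.18, 2.01 and 1.70 with siMk5, and all 3 siMk5 libraries were below all 3 siNTC ones in BSA and under PA alike. The log2 difference was -0.61 in BSA and -0.49 under PA, and neither passed across all genes (edgeR adjusted p = 0.469 for each). The paper likewise reports a downward trend in Mk5 RNA short of its threshold. It reports efficient silencing of both targets by Western blot, a measure of protein that these RNA data do not hold.

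Myotube markers were abundant in all 6 groups. The 8 markers, led by Acta1, summed to 10540.2 ± 307 normalized CPM in siNTC BSA and 9551 ± 139 in siNTC PA (SD, n = 3). In the same order the sums were 10478 ± 417 and 9796 ± 227 with siErk3, and 9816 ± 576 and 9694.5 ± 308 with siMk5. All PA sums lay below all BSA sums in siNTC and siErk3, and they overlapped with siMk5. Single myotube markers also differed under palmitic acid. Myog, the transcription factor myogenin, was called lower in siNTC (-0.59), siErk3 (-0.48) and siMk5 (-0.44). Ckm was -0.38, -0.33 and -0.27 and Tnnc2 -0.44, -0.29 and -0.17 in the same order, called in siNTC and under the fold threshold in the others. Their interactions with siErk3 and siMk5 were not called. The other 5 were not called with palmitic acid, and they ranged in siNTC from -0.35 for Tnnt3 to 0.11 for Des, whose PA libraries lay above its BSA libraries in all 3 comparisons. Markers of other cells were near zero. The 5 macrophage markers, led by Cd68, summed to at most 2.14 CPM on average, with Adgre1 at 0 counts in every library, and of the 4 adipocyte markers Plin1 and Cidec were at 0 throughout. The 6 myoblast and cycling markers, led by Mki67, also moved with palmitic acid. Their sum was 885 ± 15.2 in siNTC BSA and 439 ± 35.9 in siNTC PA, 921 ± 20.2 and 429 ± 60.2 with siErk3, and 923 ± 18.2 and 425 ± 8.63 with siMk5 (SD, n = 3), and 5 of the 6 were called lower in each PA comparison. The share of counts on the 18S gene Rn18s-rs5 also differed, with medians of 5.64% in siNTC BSA and 6.12% in siNTC PA, 1.82% and 5.87% with siErk3, and 10.8% and 4.34% with siMk5. The part of the myotube and cycling markers in the results below was not tested. In these bulk samples, fewer cells of a type and less RNA per cell cannot be told apart.

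The effect of palmitic acid was compared with BSA within each siRNA. A gene was called when its false discovery rate over all genes was under 0.05 and its fold change over 1.3. In siNTC myotubes 22 of the 39 genes were called higher and 2 lower, against 30.6% of all tested genes called in either direction, 15.5% higher and 15.1% lower. The median log2 fold change of the 39 was 0.64, beside -0.03 for all genes. With siErk3, 24 were higher and 2 lower (32.1% of all genes called, 15.8% higher and 16.3% lower), and with siMk5, 23 were higher and 3 lower (29.7% of all genes called, 15.1% higher and 14.6% lower). These 3 comparisons share no library. In all 3 of them the same 22 genes were higher (56.4%, beside 12% of all tested genes) and the same 2, Txnrd2 and Sod3, were lower (5.13%, beside 10.8%). Another 12 were called in none (30.8%, beside 59.7%), and no member was called in opposite directions. All 39 were over 1 normalized CPM on average, as were 12734 of the 21772 tested genes. The shares of all genes in these results thus include scarcer genes and were not matched for level. Most uncalled members were held back by the fold threshold: with the false discovery rate alone 37, 38 and 39 of the 39 passed in siNTC, siErk3 and siMk5, where 9809, 10265 and 9653 of all 21772 genes did. With the 18S share as a covariate, 24, 27 and 25 of the 39 were called in siNTC, siErk3 and siMk5. The shares of all genes above are from the fit without this covariate, so they are no background for these counts.

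**Figure D1:**
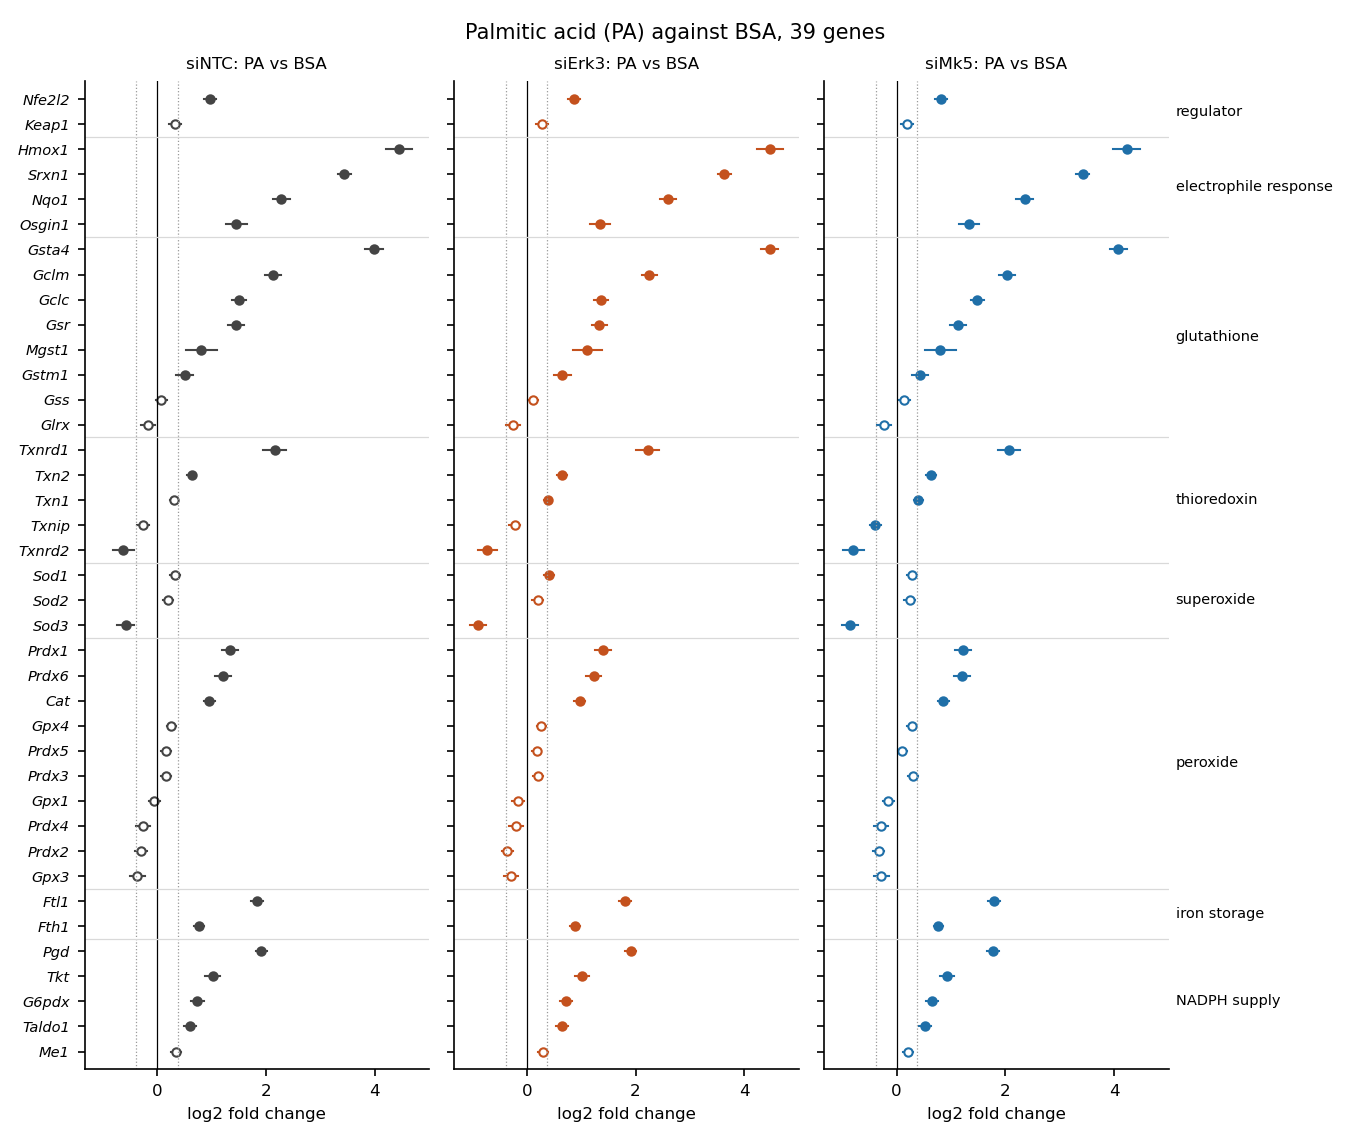
Log2 fold change of each of the 39 genes under palmitic acid against BSA (x axis) in siNTC, siErk3 and siMk5 myotubes, with genes on the y axis in groups by role. Points are edgeR estimates with 95% intervals, filled where called, and dotted lines mark a fold change of 1.3; Hmox1 lies farthest to the right in siNTC at 4.45, and Txnrd2 and Sod3 lie to the left in all 3 panels.

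Of the 2 regulators, the NRF2 gene itself rose and the gene for its inhibitor was not called. Nfe2l2 was 90.3, 92.4 and 91.5 normalized CPM in siNTC BSA and 166, 179 and 193 in siNTC PA, a 1.96-fold rise (log2 fold change 0.97, SE 0.057, edgeR adjusted p = 5.46e-15). It was 1.83-fold higher with siErk3 and 1.76-fold higher with siMk5, and the PA libraries lay above the BSA libraries in every case. Keap1 averaged 60.7 ± 6.09 in siNTC BSA and 76.6 ± 3.26 in siNTC PA (SD, n = 3). Its log2 differences of 0.33, 0.29 and 0.19 stayed under the fold threshold, although all PA libraries were above all BSA libraries.

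Promoter windows were searched for the core of the antioxidant response element. The core was written TGACNNNGC and looked for on both strands in RefSeq windows of 300 bases around gene starts. RefSeq held windows for 33 of the 39 genes, and 10 of these (30.3%) carried the core. So did 12 of 52 genes (23.1%) from the list of further pathway genes described below. Among all 27025 genes with a window the share was 14%, and among the 12771 tested genes with one it was 16.6%. Counted by single windows, the core was in 10 of the 44 windows of the members (22.7%) and in 12.4% of all 32851. Hmox1, Gclc, Gsr, Gsta4, Sod3 and Prdx6 have no window in the table. The stretches below show 6 genes that rose under palmitic acid and 2, Sod1 and Me1, that were not called in siNTC, each read 5′ to 3′ on the gene's strand with the 9-base core, or its reverse complement, in capitals.
Nfe2l2: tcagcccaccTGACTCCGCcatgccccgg
Srxn1: gcagtgggcaGCTAGGTCAgagtgagaca
Gclm: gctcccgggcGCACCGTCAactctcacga
Txnrd1: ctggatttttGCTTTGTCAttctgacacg
Prdx1: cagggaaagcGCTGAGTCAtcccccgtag
G6pdx: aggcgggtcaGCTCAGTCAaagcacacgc
Sod1: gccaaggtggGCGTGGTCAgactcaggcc
Me1: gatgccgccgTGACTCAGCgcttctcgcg
On GRCm39 these lie at chr2:75535229-75535257 (minus strand) for Nfe2l2, chr2:151947462-151947490 (plus) for Srxn1, chr3:122039062-122039090 (plus) for Gclm, chr10:82694938-82694966 (plus) for Txnrd1, chr4:116542653-116542681 (plus) for Prdx1, chrX:73472525-73472553 (minus) for G6pdx, chr16:90017584-90017612 (plus) for Sod1 and chr9:86577955-86577983 (minus) for Me1. The core starts 240 bases before the start site in Nfe2l2 (position -240), at -134 in Gclm, -92 in Txnrd1, -133 in Prdx1, -57 in G6pdx and -56 in Sod1, lies 28 bases after it in Srxn1, and spans the start site in Me1. Of the 10 genes with the core, 8 were higher in siNTC under palmitic acid, 0 lower and 2 not called. Of the 23 with a window and no core, 9 were higher, 1 lower and 13 not called, and of the 6 with no window 5 were higher and 1 lower. Among all tested genes, 21.5% of the 2118 with the core were called higher and 16.5% lower. Of the 10653 with a window and no core, 18.5% were higher and 17.8% lower. Of the 8818 with no window, 10.7% were higher and 11.5% lower. The members were chosen as genes of this pathway, so their split carries no test of the core. A match of these letters is a description of the window and not a measured binding site.

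All 4 electrophile response genes rose in each siRNA group. Hmox1, the inducible enzyme that breaks down heme, was 23.7, 27.7 and 28.7 normalized CPM in siNTC BSA and 485, 586 and 691 in siNTC PA, 21.8-fold higher (log2 fold change 4.45, SE 0.13, edgeR adjusted p = 5.83e-23). Under palmitic acid it reached 729, 578 and 491 with siErk3 and 614, 522 and 486 with siMk5, from means of 27.0 and 28.9 in BSA. The PA libraries of a group differed more from each other than for most genes here, yet the lowest PA library stood far above the highest BSA library. Srxn1, sulfiredoxin, which repairs overoxidized peroxiredoxins, had the smallest adjusted p of the 39. It went from 17.4, 20 and 20.9 to 206, 219.9 and 217 in siNTC, 10.9-fold higher (SE 0.060 on the log2 scale, edgeR adjusted p = 3.8e-28), and was 12.4-fold and 10.7-fold higher with siErk3 and siMk5. Nqo1, a quinone reductase, went from 8.64, 9.21 and 10.6 to 46.5, 46.5 and 47.0, 4.89-fold higher (edgeR adjusted p = 1.99e-20), with 6.04-fold in siErk3 and 5.12-fold in siMk5. Osgin1, an oxidative stress-induced growth inhibitor, averaged 15.4 ± 0.897 in siNTC BSA and 42.6 ± 4.31 in siNTC PA (SD, n = 3), a log2 fold change of 1.46, with 1.35 and 1.33 in the other groups.

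**Figure D2:**
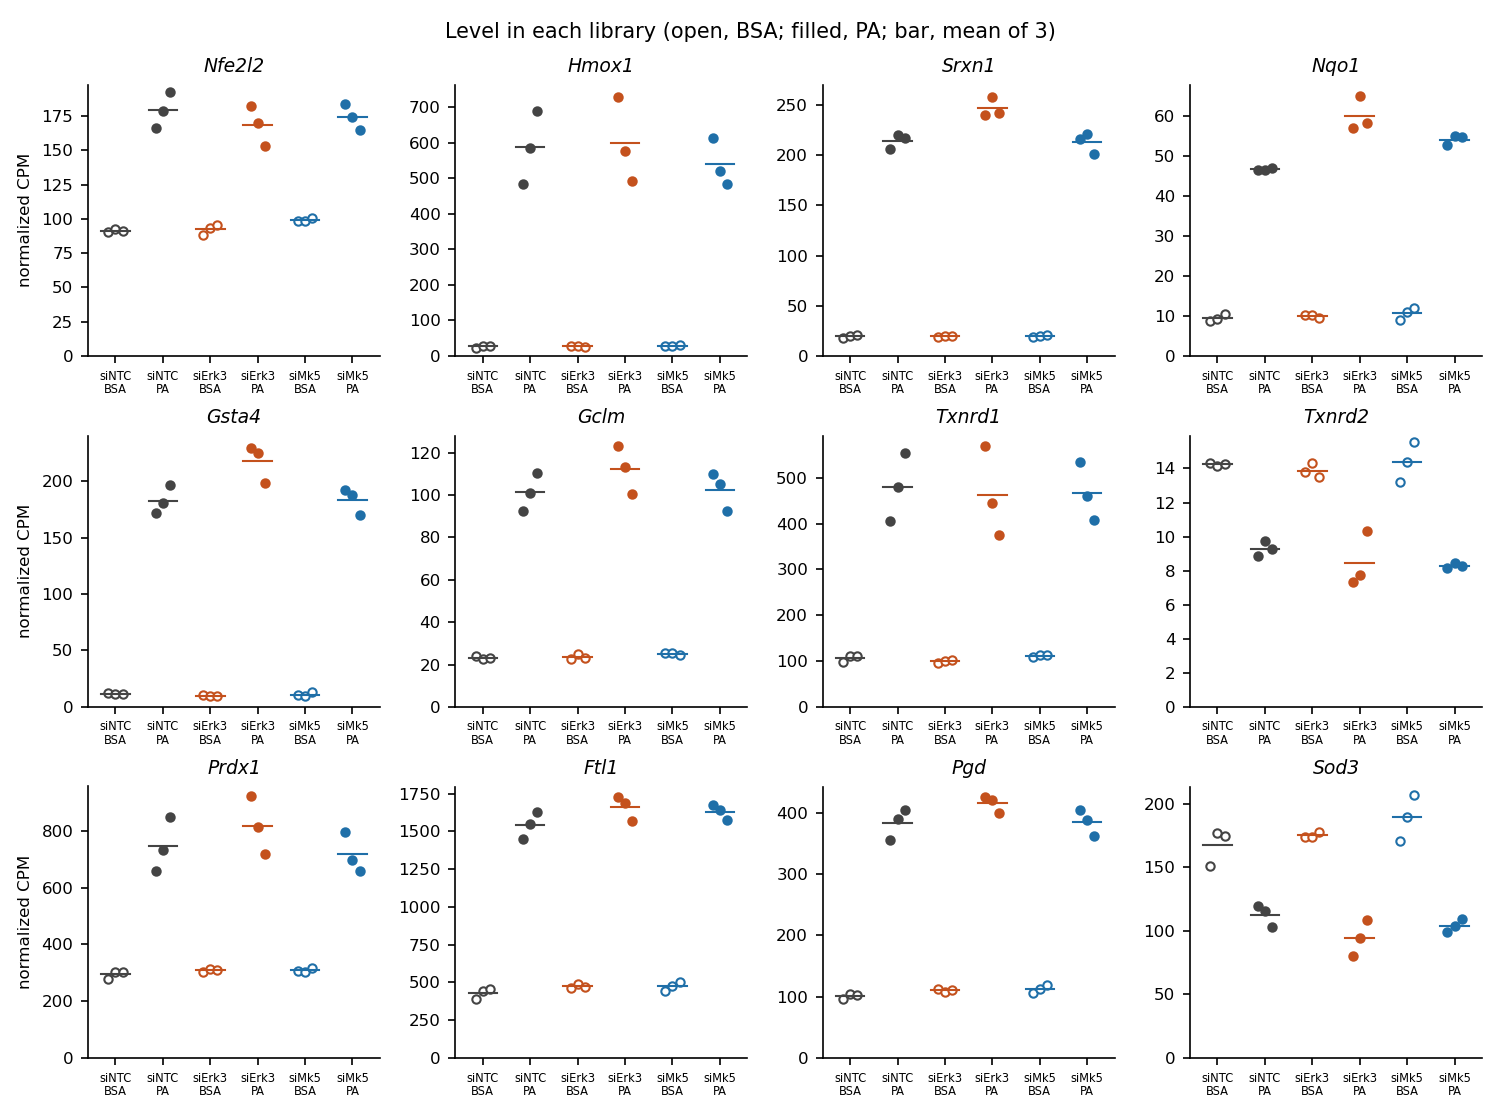
Normalized CPM (y axis, from 0) of 12 genes in each of the 18 libraries, by siRNA and medium (x axis); open points are BSA, filled points PA and bars the mean of 3. Filled points lie above open points in all panels except Txnrd2 and Sod3, where they lie below, and the Hmox1 points in siNTC PA run from 485 to 691.

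In the glutathione group 6 of 8 genes rose in all 3 comparisons. Gsta4, a glutathione transferase that acts on 4-hydroxynonenal, a product of lipid peroxidation, went from 12.2, 11.4 and 11.1 normalized CPM to 172, 180.2 and 196 in siNTC, 15.9-fold higher (log2 fold change 3.99, SE 0.084, edgeR adjusted p = 3.62e-26). The PA level was 229, 225 and 198 with siErk3 and 192, 188 and 169.6 with siMk5, and the rise was 22.1-fold and 16.9-fold. The 2 subunits of glutamate-cysteine ligase, the rate-limiting enzyme of glutathione synthesis, both rose, the modifier more than the catalytic subunit. Gclm went from 23.8, 22.5 and 22.9 to 92.5, 101 and 111 (4.39-fold, edgeR adjusted p = 1.7e-20). Gclc went from 39.6, 39.4 and 40.6 to 106, 114 and 121 (2.85-fold, edgeR adjusted p = 2.77e-18). Neither group of PA libraries overlapped its BSA libraries. Gsr, which reduces oxidized glutathione with NADPH, averaged 26.1 ± 2.29 in siNTC BSA and 72.3 ± 5.94 in siNTC PA (log2 fold change 1.46), and the log2 fold change was 1.33 with siErk3 and 1.13 with siMk5. Mgst1, a membrane-bound transferase, averaged 4.90 ± 0.642 and 8.58 ± 1.22 (log2 fold change 0.82), and Gstm1 40.0 ± 0.830 and 57.0 ± 0.697 (0.51; SD, n = 3 throughout). The Gstm1 value with siMk5, 0.43, fell to 0.30 and was no longer called without siMk5 BSA replicate 1. Gss, glutathione synthetase, and Glrx, a glutaredoxin, were called in no comparison. Gss was 56.1 ± 3.21 in siNTC BSA and 59.5 ± 1.41 in siNTC PA, and Glrx was 19.6 ± 0.553 and 17.6 ± 1.14.

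The thioredoxin group split by member. Txnrd1, the cytosolic thioredoxin reductase, went from 98.0, 111 and 112 normalized CPM to 407, 481 and 554 in siNTC (4.49-fold, log2 fold change 2.17, SE 0.11, edgeR adjusted p = 7.36e-17), with 4.67-fold in siErk3 and 4.19-fold in siMk5. Txnrd2, the mitochondrial reductase, went the other way. It averaged 14.2 ± 0.106 in siNTC BSA and 9.29 ± 0.425 in siNTC PA (SD, n = 3), 1.53-fold lower (edgeR adjusted p = 2.5e-06), and was 1.65-fold lower with siErk3 and 1.73-fold lower with siMk5. Txn2, the mitochondrial thioredoxin, rose from 98.0, 103 and 96.6 to 152, 154 and 157 (1.56-fold, edgeR adjusted p = 4.14e-13). The cytosolic thioredoxin gene Txn1 was 209, 203 and 204 in siNTC BSA and 248, 255 and 261 in siNTC PA, a log2 difference of 0.31 that stayed under the fold threshold. It was just past it with siErk3 (0.39) and siMk5 (0.40), and leaving out siErk3 BSA replicate 1 (0.38), siErk3 BSA replicate 2 (0.37) or siErk3 PA replicate 2 (0.37) ended the first of these calls, as leaving out siMk5 BSA replicate 3 (0.38) did the second. Txnip, which binds and inhibits thioredoxin, averaged 85.2 ± 2.83 and 71.6 ± 2.75 in siNTC (log2 difference -0.25) and was called lower only with siMk5 (-0.39). That call was lost without siMk5 BSA replicate 3 (-0.33), siMk5 PA replicate 1 (-0.37) or siMk5 PA replicate 2 (-0.37), and with the 18S covariate (-0.36).

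Superoxide dismutases turn superoxide into hydrogen peroxide. Sod3, the secreted form, was 151, 177 and 174 normalized CPM in siNTC BSA and 119.5, 115 and 103 in siNTC PA, 1.49-fold lower (log2 fold change -0.57, SE 0.077, edgeR adjusted p = 1.84e-07), and was 1.86-fold lower with siErk3 and 1.82-fold lower with siMk5. Sod1, the cytosolic form, was 113, 123 and 123 in siNTC BSA and 149, 150.2 and 155 in siNTC PA. Its log2 differences were 0.34, 0.41 and 0.28 in siNTC, siErk3 and siMk5, and only the siErk3 value was called. Sod2, the mitochondrial form, averaged 65.6 ± 2.90 in siNTC BSA and 75.6 ± 0.755 in siNTC PA (SD, n = 3), with log2 differences of 0.20, 0.20 and 0.24, and was not called.

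Among the 10 peroxide-removing enzymes 3 rose in all 3 comparisons and the other 7 were not called. Prdx1, a cytosolic peroxiredoxin, went from 278, 304 and 301 normalized CPM to 659.6, 733 and 849 in siNTC (2.54-fold, edgeR adjusted p = 2.36e-15). Prdx6, a peroxiredoxin that also acts on phospholipid peroxides, went from 113, 130.1 and 133 to 258, 285 and 331 (2.31-fold, edgeR adjusted p = 1.65e-14). Cat, the catalase of peroxisomes, went from 73.2, 77.7 and 78.3 to 147, 154 and 145 (1.94-fold, edgeR adjusted p = 7.21e-16). The log2 fold changes of these genes with siErk3 and siMk5 were 1.40 and 1.22 for Prdx1, 1.23 and 1.20 for Prdx6, and 0.97 and 0.86 for Cat. The uncalled genes were Prdx2, Prdx3, Prdx4, Prdx5, Gpx1, Gpx3 and Gpx4. In siNTC, Gpx3 had the lowest log2 difference of these, -0.36, and Gpx4, which reduces lipid hydroperoxides in membranes, the highest, 0.26. The Gpx3 difference was called lower in siNTC without siNTC BSA replicate 1 (-0.40), without siNTC PA replicate 2 (-0.40) and with filterByExpr (-0.38). Prdx2 was called lower in siErk3 with the 18S covariate (-0.41) and without siErk3 PA replicate 2 (-0.38) or replicate 3 (-0.39), and in siMk5 without siMk5 BSA replicate 1 (-0.38). Prdx2, also cytosolic, averaged 283 ± 19.7 in siNTC BSA and 231 ± 8.32 in siNTC PA. Per kb of exon, Prdx1 and Prdx2 were at similar levels in siNTC BSA, 96.7 and 92.7 normalized CPM per kb, and at 245 and 75.8 in siNTC PA.

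**Figure D3:**
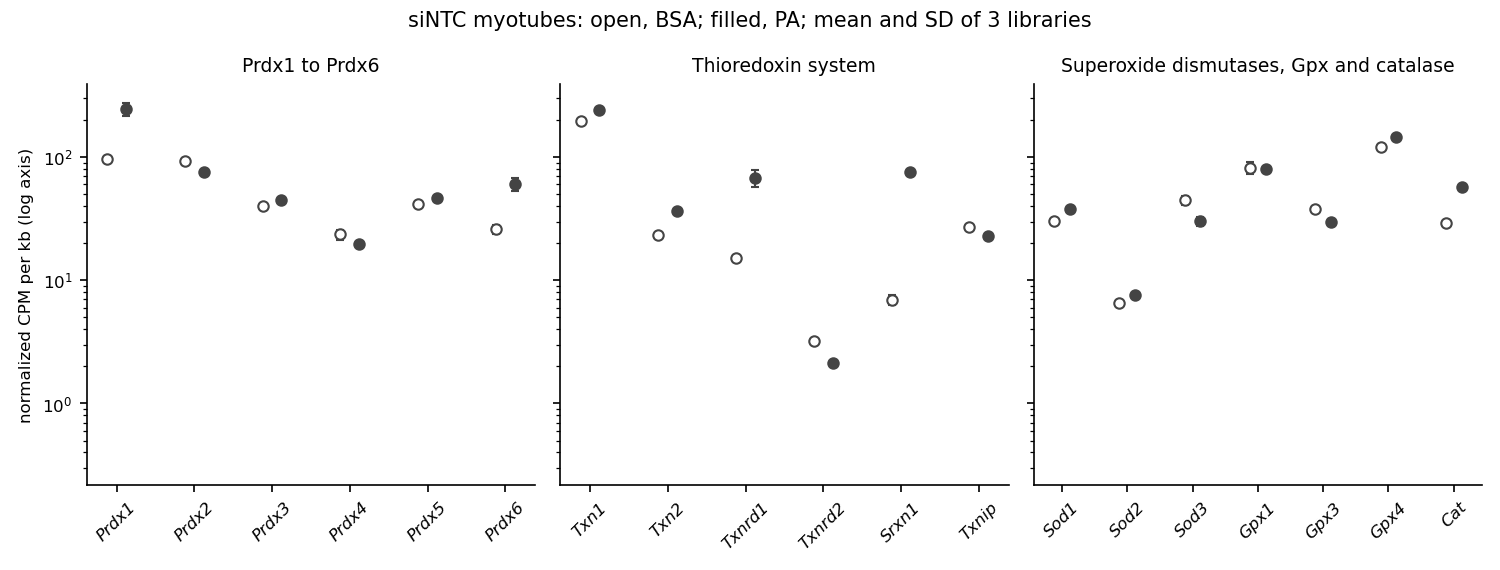
Level per kb of exon (y axis, normalized CPM per kb, log axis) of peroxiredoxins, the thioredoxin system, and superoxide dismutases, glutathione peroxidases and catalase (x axis) in siNTC BSA (open) and siNTC PA (filled), as mean and SD of 3 libraries. Prdx1 moves from 96.7 to 245 while Prdx2 is at 92.7 and 75.8, and Txnrd1 and Txnrd2 move in opposite directions.

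Both ferritin subunits, which store iron, rose in every comparison and were the most abundant of the 39 genes per kb. Ftl1, the light chain, went from 391, 440.4 and 453 normalized CPM to 1447, 1547 and 1627 in siNTC (3.59-fold, log2 fold change 1.85, SE 0.056, edgeR adjusted p = 4.06e-22). Fth1, the heavy chain, went from 1004, 1123 and 1094 to 1783, 1843 and 1897 (1.71-fold, edgeR adjusted p = 4.23e-15). Per kb, the 2 were at 319.7 and 309.5 in siNTC BSA and at 1149.6 and 531 in siNTC PA. With siErk3 and siMk5 the log2 fold changes were 1.81 and 1.79 for Ftl1 and 0.88 and 0.77 for Fth1. Hmox1 stood in place 23 of 39 by level per kb in siNTC BSA (15.2) and in place 3 in siNTC PA (336).

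Of the 5 genes listed under NADPH supply, 4 rose, all in the pentose phosphate pathway. Pgd and G6pdx make NADPH in its oxidative branch, and Tkt and Taldo1 belong to the other branch, which makes none. Pgd, 6-phosphogluconate dehydrogenase, went from 95.7, 104 and 103 normalized CPM to 355, 389.7 and 404 in siNTC (3.79-fold, log2 fold change 1.92, SE 0.054, edgeR adjusted p = 5.27e-23). Tkt, transketolase, went from 34.5, 43.1 and 44.0 to 76.0, 83.0 and 91.0 (2.04-fold, edgeR adjusted p = 1.34e-13). G6pdx, the dehydrogenase that opens the pathway, went from 34.1, 34.6 and 39.2 to 58.8, 61.3 and 61.2 (1.68-fold, edgeR adjusted p = 1.84e-12). In none of these did PA and BSA libraries overlap. Taldo1, transaldolase, averaged 73.3 ± 7.20 in siNTC BSA and 113 ± 5.61 in siNTC PA (SD, n = 3), with log2 fold changes of 0.62, 0.65 and 0.52 in siNTC, siErk3 and siMk5. Me1, cytosolic malic enzyme, makes NADPH from malate outside this pathway. It averaged 71.7 ± 2.48 and 92.1 ± 1.81 in siNTC, with log2 differences of 0.36, 0.30 and 0.21, and was not called. Of 8 further NADPH supply genes outside the 39, 2 were higher (25%, beside 15.5% of all genes) and 1 lower (12.5%, beside 15.1%) in siNTC. The higher ones were Tigar, a bisphosphatase that diverts glucose to the pentose phosphate pathway (1.32, from 8.26 ± 0.595 to 20.6 ± 2.47), and the isomerase Rpia (0.43, from 13 ± 0.658 to 17.5 ± 0.806). The lower one was the cytosolic isocitrate dehydrogenase Idh1 (-0.46), which averaged 157 ± 4.83 in siNTC BSA and 114 ± 11.8 in siNTC PA.

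A list of 61 further genes, here called further pathway genes, was described in the same way. It covers NRF2 partners and inhibitors, more genes of the systems above, metal handling and superoxide producers. A place on it does not mark a gene as an NRF2 target. In siNTC 29 were higher and 9 lower under palmitic acid (47.5% and 14.8%, beside 15.5% and 15.1% of all genes). In siErk3 it was 29 and 10 (47.5% and 16.4%, beside 15.8% and 16.3%), and in siMk5 27 and 9 (44.3% and 14.8%, beside 15.1% and 14.6%), so the share called lower was near that of all genes. Slc7a11, the cystine transporter that feeds glutathione synthesis, was 1.19, 0.875 and 1.28 normalized CPM in siNTC BSA and 301, 344 and 405 in siNTC PA (log2 fold change 8.31, SE 0.18, edgeR adjusted p = 1.13e-25). Chac1, which degrades glutathione, rose as well, from 7.05 ± 1.19 to 98.6 ± 8.01 (13.7-fold; SD, n = 3). Sqstm1, the autophagy receptor p62 that binds KEAP1, went from 417 ± 14 to 2239 ± 241 (5.37-fold). The other 7 of the 10 called genes with the smallest adjusted p in siNTC also rose. These were the heme transporter Slc48a1 (log2 fold change 1.77), the metallothioneins Mt2 (1.81) and Mt1 (1.53), the transferase Gstp1 (1.37), the NRF2 partner Mafg (1.31), the stress protein Sesn2 (1.95) and the glutathione conjugate exporter Abcc1 (1.71). The following were picked after their values were seen. The other small MAF genes, Maff (1.80) and Mafk (1.53), were also higher, while Bach2, a repressor that pairs with small MAF proteins and averaged 7.26 normalized CPM in siNTC BSA, was lower (-1.27). Bach1, the related repressor, was not called (0.32), with 74.4, 68.6 and 75.8 in siNTC BSA and 85.8, 93.4 and 94.4 in siNTC PA. The glutathione transferases Gstm2 (-0.67), Mgst3 (-0.62) and Gstt1 (-1.89, at 0.911 normalized CPM in siNTC BSA) were called lower too. Also lower were the iron exporter Slc40a1 (-0.86), the hydrogen peroxide-producing oxidase Nox4 (-0.93) and the sestrins Sesn1 (-0.90) and Sesn3 (-1.39).

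Silencing was then compared with siNTC within each medium, and the 39 genes gave no call by edgeR. For siErk3 in BSA, 0 of 39 were called, where 0.785% of all genes were, and 7 had an unadjusted p under 0.05, as 10.6% of all genes did. For siErk3 under PA, 0 were called (0.556% of all genes) and 9 had an unadjusted p under 0.05 (8.28% of all genes). For siMk5 in BSA, 0 were called (0.0643% of all genes), with 4 at that p (6.89% of all genes), and for siMk5 under PA, 0 (0.547% of all genes), with 2 (6.79%). The share of members at that p was above that of all genes in each comparison except siMk5 under PA, where it was below. The genes share their libraries, so these shares carry no test. DESeq2 also called 0 of the 39 in each of these comparisons. The log2 differences spanned -0.22 to 0.18, -0.26 to 0.37, -0.13 to 0.18 and -0.18 to 0.21 in that order. The 95% interval lay inside a 1.3-fold change in either direction for 37, 37, 39 and 39 of the 39 genes. These bounds, and those of the interactions below, hold for the partial silencing seen in RNA. Mapk6 was 2.30-fold lower with siErk3 in BSA and 1.93-fold lower under PA. Mapkapk5 was 1.52-fold lower with siMk5 in BSA and 1.40-fold lower under PA, neither called. The 2 PA comparisons share the siNTC PA libraries and the 2 BSA comparisons the siNTC BSA libraries.

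**Figure D4:**
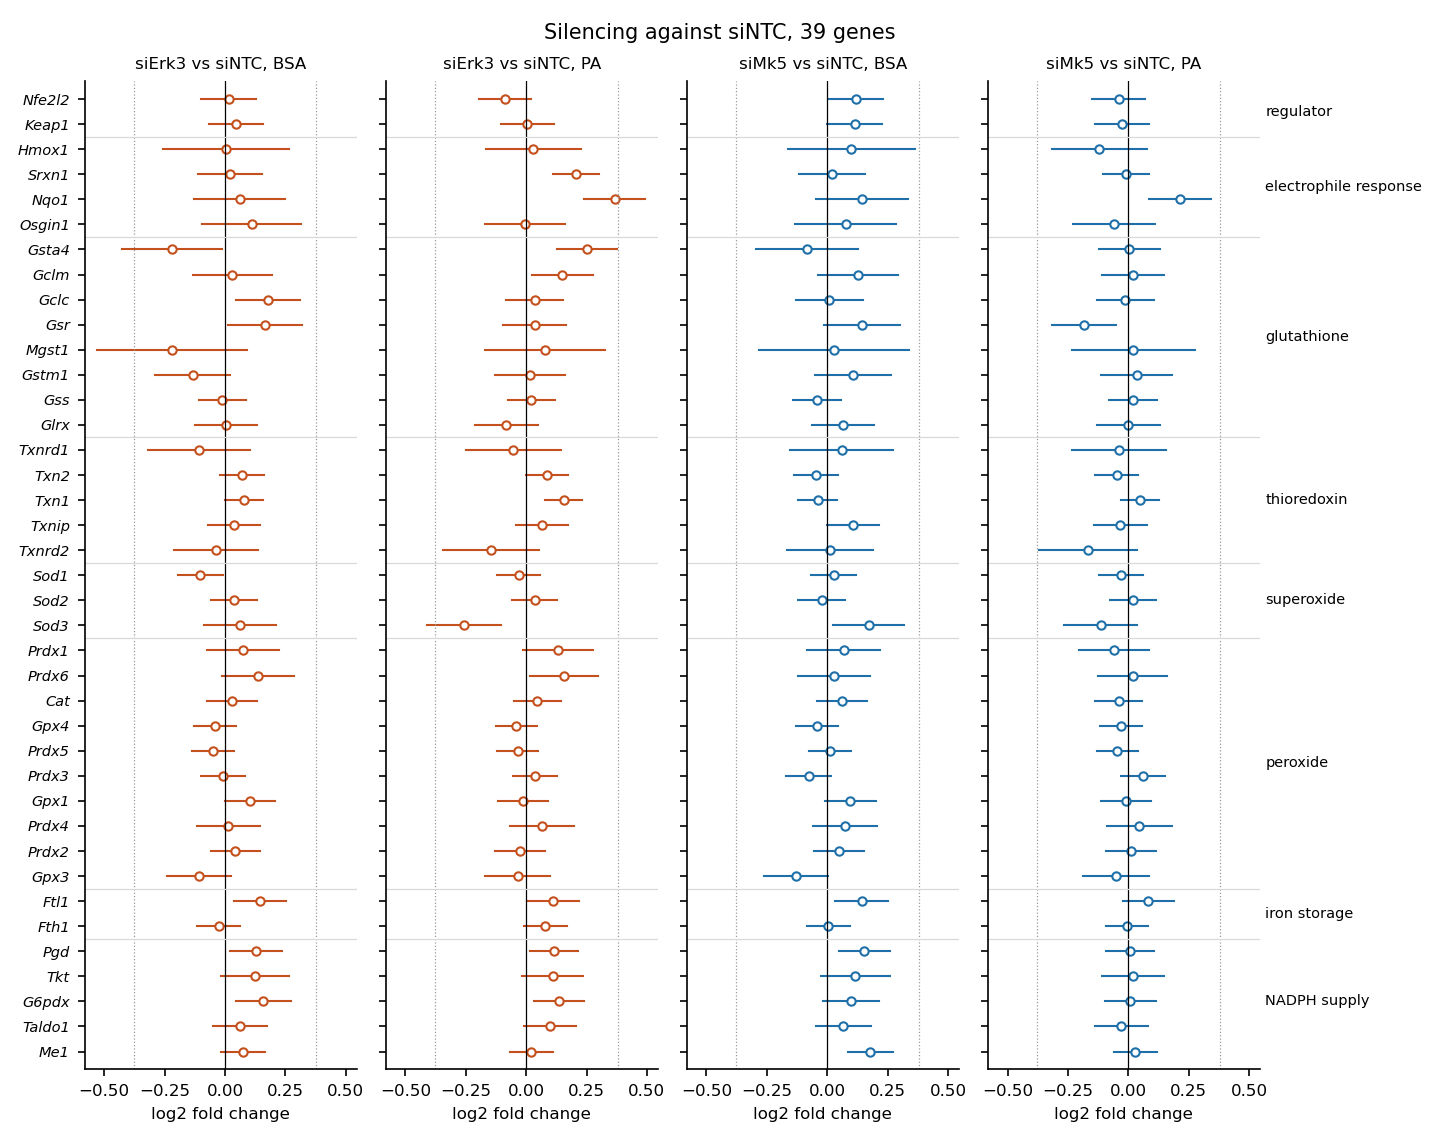
Log2 fold change of the 39 genes against siNTC (x axis) for siErk3 and siMk5 in BSA and under PA, with genes on the y axis in groups by role. Points are edgeR estimates with 95% intervals, open because none was called, and dotted lines mark a fold change of 1.3; Nqo1 with siErk3 under PA lies nearest the right line at 0.37.

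The genes closest to a call were in siErk3 myotubes under PA, where 3 of the 39 had a false discovery rate under 0.05 with a fold change below 1.3, beside 186 of all 21772 genes under that rate at any fold change. Nqo1 was 46.5, 46.5 and 47.0 normalized CPM with siNTC and 56.9, 65.0 and 58.3 with siErk3 (1.29-fold, edgeR adjusted p = 0.00142). Srxn1 was 206, 219.9 and 217 against 240.1, 258 and 242 (1.15-fold, edgeR adjusted p = 0.0304), and Gsta4 172, 180.2 and 196 against 229, 225 and 198 (1.19-fold, edgeR adjusted p = 0.0466). In all 3 genes each siErk3 library was above each siNTC library. Without siErk3 PA replicate 1 or siErk3 PA replicate 3 the Nqo1 value was 0.41 or 0.40 on the log2 scale and passed the fold threshold.

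Whether silencing altered the response to palmitic acid was tested as an interaction. For siErk3, 0 of the 39 genes were called by edgeR (0.0367% of all genes) and 4 had an unadjusted p under 0.05 (6.1% of all genes). For siMk5, 0 were called (0.211% of all genes), also with 4 at that p (7.43% of all genes). Both shares of members at that p were above those of all genes, which again carries no test. DESeq2 called 0 of the 39 in both. The widest difference was in Gsta4 with siErk3, where the rise under palmitic acid was larger by 0.47 on the log2 scale (95% interval 0.23 to 0.72, edgeR adjusted p = 0.300). It was called without siErk3 PA replicate 3, at 0.54 (edgeR adjusted p = 0.0495), and with no filter on low counts, at 0.49. For siMk5 the widest was Gsr, at -0.33 (95% interval -0.53 to -0.12, edgeR adjusted p = 0.357). All 39 intervals lay inside a 2-fold difference in both interactions. None of the 61 further pathway genes was called in a silencing comparison or an interaction.

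Some of these genes have near-identical copies elsewhere in the genome, among them processed pseudogenes of Ftl1, Fth1, Prdx1, Txn1 and Gpx4 and related members of the Gsta and Gstm families. The counting kept the primary alignment at a mapping quality of at least 3, so reads could be split between copies and these levels are uncertain. Exons of another gene on the same strand covered 8.13% of the exonic bases of Ftl1, 3.88% of Gclm and a single base of Tkt, and no base of the other members.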

How the data were processed

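RNA-seq of 18 libraries in 6 groups of 3 was analysed. Raw counts were deposited: the authors aligned reads to GRCm39 with STAR and counted them per gene with featureCounts 2.0.0 (reverse strand, primary alignments, mapping quality of at least 3, Ensembl 105). The submitters' processing notes name mm10, but the file header and methods name GRCm39. A second deposited table, of log2 FPKM values from DESeq2 for the same libraries, was not used. Symbols came from GENCODE M39, which named 21601 of the 21772 tested genes.

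Genes with 10 or more counts summed over the libraries were fitted with edgeR 4.0.16 (TMM scaling, quasi-likelihood test, 1 coefficient per group, R 4.3.3), with Benjamini-Hochberg adjustment over all genes. The script was tested on simulated data. Intervals are 95%, the estimate plus or minus a normal multiple of its SE. Alternatives included DESeq2 1.42.0, other scaling and filters, an 18S covariate, a replicate block and leaving out each library. The members and lists were chosen with earlier results of these data known. Values in every library were given for up to 3 members of each role called in any comparison, those with the smallest adjusted p under palmitic acid in siNTC, and means for other members called. Also named were, of further pathway genes, the 10 called ones with the smallest adjusted p and others picked by their values. Promoter windows are from RefSeq (GRCm38.p6), placed on GRCm39 by exact match.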

Additional observations from a re-analysis of the deposited data

How the results depend on the processing

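No gene of the 39 changed sign in a comparison where it was called, with or without an alternative; small uncalled differences did cross 0, such as Gpx1 in siNTC under palmitic acid (-0.13 to 0.02). With the false discovery rate alone, 37 of the 39 genes were called in siNTC under palmitic acid (30 higher, 7 lower), where 9809 of the 21772 tested genes were (5195 higher, 4614 lower). So were 3 with siErk3 under PA, and 1 of the 61 further genes with siErk3 in BSA. All genes called then numbered 263 for siErk3 in BSA (171 with the fold threshold) and 186 for siErk3 under PA (121). With no filter on low counts, all genes called were 208 for siErk3 under PA, 61 for siMk5 in BSA (14 with the filter), 72 for the siErk3 interaction (8) and 130 for the siMk5 interaction (46), and 1 of the 39 genes and 1 of the 61 were called in the siErk3 interaction. Fitting only the groups compared gave 34 for siMk5 in BSA. The 18S covariate gave 111 for siErk3 in BSA, 29 for the siErk3 interaction with 1 of the 61 genes, and 0 for the siMk5 interaction. In the siErk3 interaction DESeq2 size factors gave 4 and filterByExpr 0. The cause was not tested.

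Leaving out 1 library at a time, all genes called ranged from 111 to 146 for siErk3 in BSA, 6 to 31 for siMk5 in BSA, 0 to 24 for the siErk3 interaction and 24 to 67 for the siMk5 interaction. Of the 39 genes, 0 to 1 were called for siErk3 under PA and 0 to 1 in the siErk3 interaction, and of the 61, 0 to 1 for siErk3 under PA. In siNTC, siErk3 and siMk5 under palmitic acid, 24 to 25, 25 to 27 and 24 to 26 of the 39 were called. All genes called in the same fits ranged from 6029 to 6662, 6396 to 7120 and 5898 to 6487 in that order.

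Deviations of same-numbered libraries had a mean correlation of -0.006 across 10553 genes (range -0.607 to 0.516), and 9 of 45 pairs were over 0.1. The largest were among the PA groups in replicates 1 and 3. They were 0.516 and 0.433 between siErk3 and siMk5, and from -0.607 to -0.408 between siNTC and either. These PA libraries thus shared a pattern of deviation, with the numbers of siNTC running the other way. With the replicate number as a block, 24, 26 and 26 of the 39 were called under palmitic acid and 0 in each other comparison, the same counts as without it. These counts cover the members alone, and the shares of all genes given earlier are from the fit without the block. A block gives same-numbered libraries the same shift, so it cannot model deviations of opposite sign. The main comparisons took all libraries as unpaired. Mgst1, lowest of the 39 per kb in siNTC BSA, had the widest interval in every comparison.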

Other observations

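After the values were seen, the highest library of each group was counted over the 22 genes that rose in all 3 palmitic acid comparisons. In siNTC PA, replicate 3 was highest for 17 of the 22, where it was highest for 36.2% of the 12734 genes over 1 CPM on average. In siErk3 PA, replicate 1 was highest for 15 of the 22 (38.8% of all such genes), and in siMk5 PA, replicate 1 for 15 (38.2%). The same 3 libraries had the lowest sums of myoblast and cycling markers in their groups, at 406, 363 and 415 normalized CPM. In BSA, replicate 3 was highest for 13 of the 22 in siNTC (36.9% of all such genes), 12 in siErk3 (48.5%) and 17 in siMk5 (45.1%). Its sum of myoblast and cycling markers was the highest of the group in siNTC (900) and siErk3 (943) and the lowest in siMk5 (910). The genes share their libraries, so these counts describe the libraries and carry no test.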
